A study of Homo sapiens with 18 samples.

Results

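The 10 genes described here are negative-feedback regulators and target genes of the RAS-RAF-MEK-ERK pathway: SPRED1, SPRED2, SPRY1, SPRY2, SPRY4, DUSP4, DUSP5, DUSP6, ETV4 and ETV5. They were the rows of the deposited gene count table whose Ensembl identifiers carry these symbols, 10 of 58735 genes. The 18 libraries hold RNA of RPMI-8402 cells, a human cell line grown from a T-cell acute lymphoblastic leukaemia. PIK3R1 knockout cells (KO) were exposed for 24 h to CB-103, to a gamma-secretase inhibitor labelled LY (GSI) or to DMSO, the solvent control. Cells with a non-targeting control (NT) received the same 3 treatments, and each of the 6 groups held 3 libraries. PIK3R1 encodes a regulatory subunit of phosphoinositide 3-kinase (PI3K). CB-103 blocks the NOTCH transcription complex, and gamma-secretase inhibitors block the cleavage that releases the active part of NOTCH receptors. No source used here gives the doses. Nothing in the labels says whether the KO line is 1 clone or a pool, or whether replicates were separate cultures, so p-values measure only the spread between these libraries, which may in part be technical.

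When growth factor, cytokine or antigen receptors activate RAS, the kinases RAF, MEK and ERK are switched on in turn, and ERK then induces genes that restrain the same pathway. SPRED and Sprouty proteins act at the membrane, upstream of RAF, and SPRED proteins recruit neurofibromin to switch RAS off. DUSP proteins of this group are phosphatases that remove the activating phosphates from ERK, DUSP6 in the cytoplasm and DUSP4 and DUSP5 in the nucleus. ETV4 and ETV5 are ETS-family transcription factors that ERK signalling induces, in part by relieving repression by Capicua. In T cells the pathway lies downstream of the T-cell receptor, its precursor form and cytokine receptors, and PI3K acts downstream of the same receptors. The levels of these RNAs are often used as a readout of ERK output. ERK activity itself was not measured here.

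PIK3R1 RNA was the check on the genotype labels. It was 25.9, 29.9 and 27.6 CPM (counts scaled to library size) in KO cells under CB-103, against 30.9, 33.5 and 29 CPM in NT cells. With GSI it was at 27.4, 32.2 and 23.9 CPM in KO cells, against 50.7, 57.1 and 53.0 CPM in NT cells. With DMSO it was at 23.1, 21.4 and 23.2 CPM in KO cells, against 44.3, 45.5 and 42.5 CPM in NT cells. The genotypes were apart under GSI and DMSO and overlapped under CB-103, where the log2 difference was -0.16±0.09 (SE; edgeR adjusted p = 0.17). Plain sums of the transcript estimates gave -0.33 there (adjusted p = 7.6e-05). A gene can keep much of its RNA after a disrupting edit, so this RNA is only a partial check. Library totals ranged from 30416183 to 43558387 estimated reads. The 5 lists of cell type markers were summed in each library. All 7 T-lineage markers were present, with sums of 885 to 1710 CPM over the 18 libraries. B-cell, myeloid and erythroid marker sums reached 5.67, 3.43 and 1.59 CPM, and the haemoglobin genes HBA1 and HBB were at 0 in every library. Adherent-cell markers summed to 78.2 to 286 CPM, with 2 of 6 (PECAM1 and COL1A1) reaching 1 CPM in any library.

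Per unit of transcript length, Sprouty and SPRED RNAs were the most abundant of these regulators. Over the 18 libraries, SPRY1 had a median of 11.4 TPM (a level scaled for transcript length and library size; range 3.57 to 17.1). SPRY2 had a median of 5.5 TPM, SPRED1 of 4.0 TPM and SPRED2 of 2.6 TPM. DUSP5 followed with 1.73 TPM, ETV5 with 1.13 TPM and DUSP6 with 0.667 TPM. SPRED1 was the steadiest of these 7 in proportion, at 3.43 to 5.09 TPM, while SPRED2 spanned 0.32 to 6.61 TPM and ETV5 0.152 to 4.73 TPM.

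The other 3 members were close to absent. DUSP4 held 0 to 11 counts per library. SPRY4, the Sprouty gene on chromosome 5, held 0 to 2 counts per library and was at 0 in 10 of 18 libraries. ETV4 was at 0 in 16 of 18 libraries, and its 2 non-zero values, of 3 and 2 counts, both came from KO cells under GSI. A count of 0 allows up to 3 counts, so SPRY4 and ETV4 were at this limit in every library and no fold is given for them. Both fell below the filter on low counts, which left 8 of the 10 members for testing. DUSP4 passed that filter only through the KO GSI libraries, so its difference there was set by the filter and supports nothing.

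**Figure D1:**
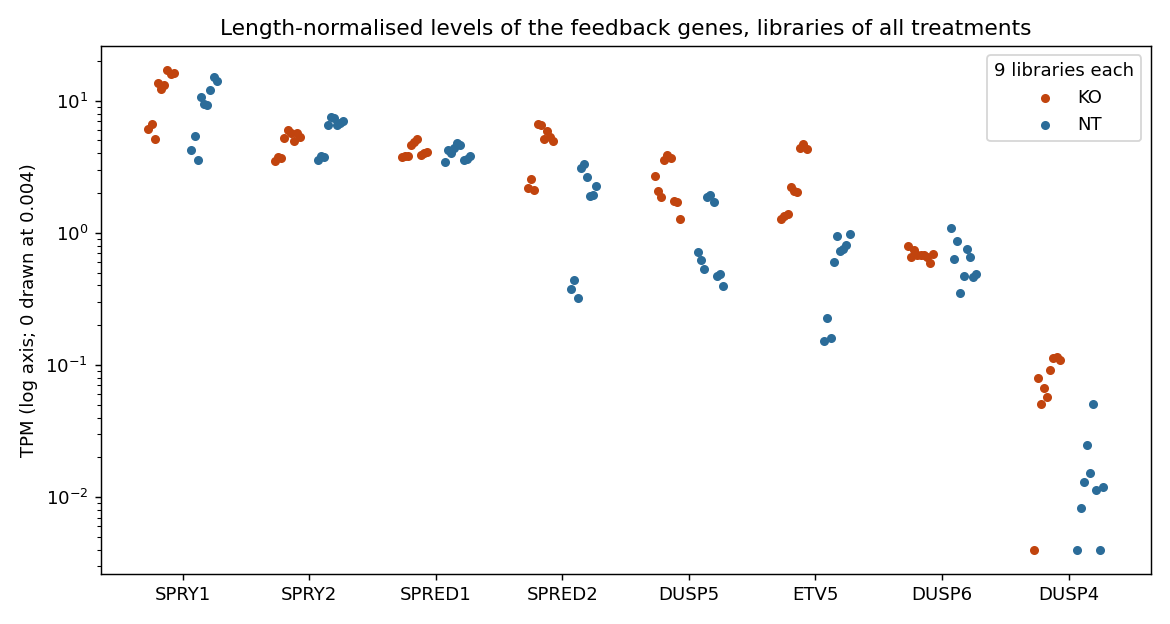
Length-normalised levels (TPM, log axis, 0 drawn at 0.004) of 8 feedback genes, with 9 KO libraries to the left of 9 NT libraries in each column and 1 point per library, all treatments together. SPRY1 lies highest with a median of 11.4 TPM, SPRED1 is spread least, and DUSP4 lies far below the rest with a median of 0.0379 TPM.

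The 10 members lie on 10 different chromosomes. In hg38, SPRED2 (ENSG00000198369) lies on chr2:65310851-65432637, SPRY1 (ENSG00000164056) on chr4:123396795-123403760, SPRY2 (ENSG00000136158) on chr13:80335976-80340951, DUSP5 (ENSG00000138166) on chr10:110497838-110511544 and ETV5 (ENSG00000244405) on chr3:186046308-186110318. The bases before an annotated start (RefSeq, GRCh38.p14) are shown for SPRED2, SPRY1 and SPRY2, on the gene's strand, 5′ to 3′. These are 3 of the 6 members whose RNAs fell with CB-103 in both genotypes. Of the other members that fell, SPRED1 has a window that lies within exons, and DUSP5 and ETV5 have no window here. Bases inside annotated exons are left out. Capitals mark the ETS-type letters AGGAAG or their complement CTTCCT.
SPRED2, chr2:65432638-65432849, minus strand: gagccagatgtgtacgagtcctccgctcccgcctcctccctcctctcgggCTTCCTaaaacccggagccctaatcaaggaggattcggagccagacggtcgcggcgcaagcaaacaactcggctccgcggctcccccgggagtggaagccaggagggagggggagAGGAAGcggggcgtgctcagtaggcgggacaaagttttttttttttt
SPRY1, chr4:123396545-123396794, plus strand: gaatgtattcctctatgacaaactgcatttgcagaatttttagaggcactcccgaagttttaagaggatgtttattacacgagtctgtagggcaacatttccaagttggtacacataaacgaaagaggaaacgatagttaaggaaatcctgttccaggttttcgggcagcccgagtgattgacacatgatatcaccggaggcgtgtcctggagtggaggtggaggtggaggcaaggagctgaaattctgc
SPRY2, chr13:80341127-80341376, minus strand: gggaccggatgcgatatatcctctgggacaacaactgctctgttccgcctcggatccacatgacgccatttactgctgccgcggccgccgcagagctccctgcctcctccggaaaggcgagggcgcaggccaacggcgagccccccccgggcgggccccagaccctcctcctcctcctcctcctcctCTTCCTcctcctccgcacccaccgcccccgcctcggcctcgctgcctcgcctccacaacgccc
The SPRED2 window holds these letters at 200 to 195 and at 85 to 80 bases before the start, with another match at 12 to 7 bases, within the exon and not printed, the SPRY2 window at 63 to 58 bases, and the SPRY1 window has no match. Another annotated start of SPRY1 has a match at 215 to 210 bases, within an exon and not printed. Transcript SPRY1-208, which begins at that start, made up 49.4% to 69.3% of the gene's TPM in the 6 groups. The counts that follow cover 10 windows of 250 bases for 6 members (SPRED1, SPRED2, SPRY1, SPRY2, SPRY4 and DUSP6). DUSP4 was left out of these counts by choice, so they say nothing about it. DUSP5, ETV4 and ETV5 have no window here. AGGAAG, read on both strands, occurs in 8 of the 10 windows and in at least 1 window of 5 of the 6 genes, all but SPRY4, and in 28.7% of 35116 promoter windows of the same length. None of the 10 windows holds the longer ETS letters CCGGAAGT (3.42% of all windows), the Capicua letters TGAATGAA (1.4%) or TGAATGGA (0.832%), the AP-1 letters TGANTCA (6.57%), the CRE letters TGACGT (7.1%), the RBPJ letters GTGGGAA (5.43%) or the FOXO letters GTAAACA (2.98%). The shares of all windows are per window and not per gene. SPRED2, SPRY1 and SPRY2 each have more than 1 of the 10 windows, so the windows are not independent. These matches are a description of letters in a window and not of binding.

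RNA of SPRED2, DUSP5 and ETV5 was higher in PIK3R1 knockout cells under all 3 treatments. ETV5 differed most, at 7.35-fold higher in KO cells under CB-103, 5.56-fold under GSI and 2.6-fold under DMSO. SPRY2 was the exception in direction, at 1.21-fold lower in KO cells under GSI and 1.37-fold lower under DMSO. A gene was called where its p-value from edgeR's quasi-likelihood test, adjusted by the Benjamini-Hochberg method over 17346 genes, was under 0.05. DUSP4 is left out of the counts and medians that follow, since its passing of the filter was set by its high group, which leaves 7 members. Under CB-103, 4 of the 7 were called higher in KO cells, where 20.4% of all genes tested were, and 0 were called lower, where 16.5% of all genes were. Under GSI, 5 were called higher (18.8% of all genes) and 1 lower (15% of all genes). Under DMSO, 3 were called higher (9.78% of all genes) and 1 lower (11.7% of all genes). The median log2 difference over the 7 members was 0.43 under CB-103, 0.35 under GSI and 0.3 under DMSO, against 0 over all genes under each treatment.

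Other measures of the libraries moved with genotype too. The mitochondrial share of counts was 1.89% to 2.69% in KO cells under CB-103, against 4.73% to 5.47% in NT cells. Under GSI the range was 2.4% to 2.57% in KO cells, within the 1.9% to 5.51% of NT cells, and under DMSO it was 1.69% to 1.88% in KO cells, against 3.09% to 3.72% in NT cells. With mitochondrial genes left out of the counts, 0 of the members' calls of KO against NT cells were lost. In the other comparisons, 1 call was lost for CB-103 against DMSO in NT cells and 1 for the difference in response to GSI. Such a fit changes only the scaling of the libraries, so it cannot show what part the mitochondrial shift has. T-lineage marker sums were 1370 to 1470 CPM in KO cells under DMSO, against 1630 to 1710 CPM in NT cells, and overlapped between genotypes under CB-103 (987 to 1050 and 885 to 992 CPM in KO and NT cells) and GSI (1270 to 1340 and 1300 to 1320 CPM). Adherent-cell marker sums were higher in KO cells under CB-103 (112 to 132 CPM, against 78.2 to 84.5 CPM in NT cells), overlapped under GSI (244 to 272 and 257 to 286 CPM) and were lower in KO cells under DMSO (224 to 238 CPM, against 260 to 281 CPM in NT cells). B-cell marker sums, of at most 5.67 CPM, were higher in KO cells under each treatment, for example 3.5 to 4.06 CPM under DMSO, against 2.72 to 3.12 CPM in NT cells. The part of these shifts in the genotype differences of the feedback genes was not tested.

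**Figure D2:**
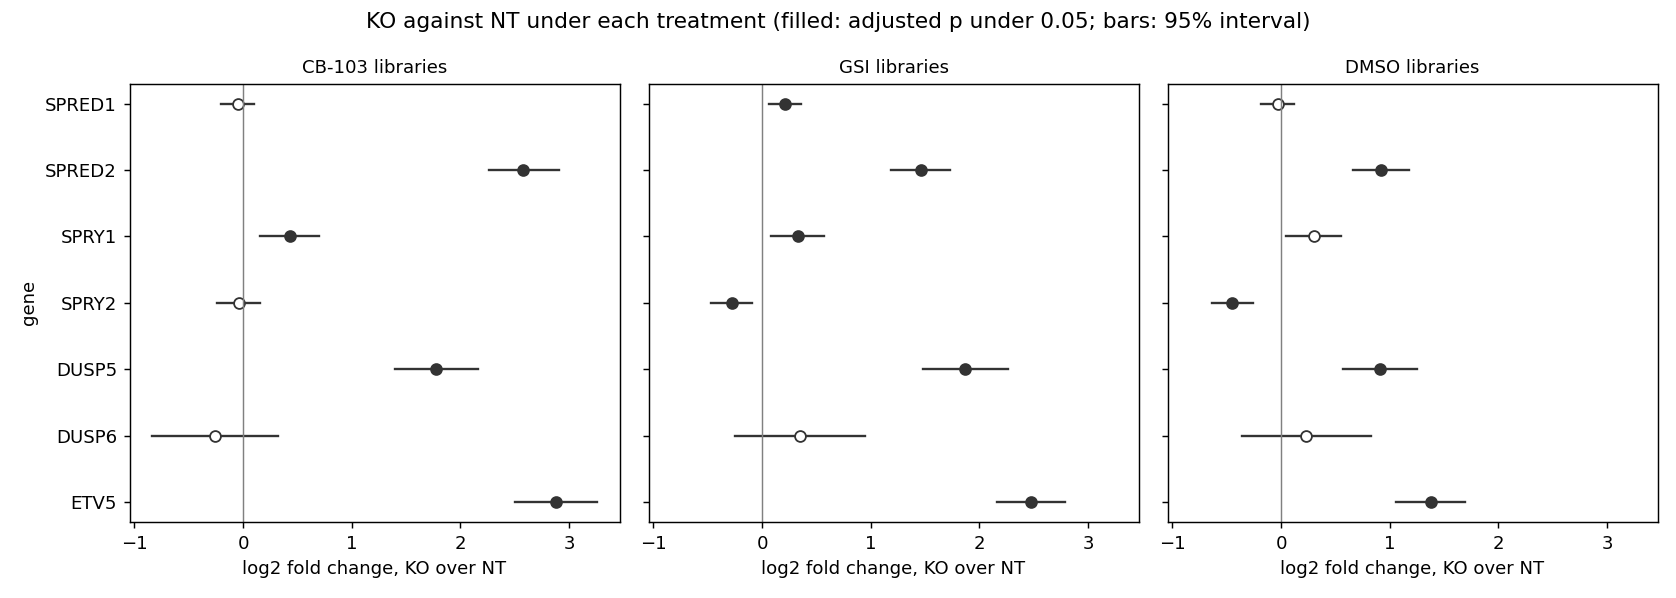
Log2 fold change of KO over NT cells (x axis) for 7 members (y axis) under CB-103, GSI and DMSO, with 95% intervals and filled points where the adjusted p was under 0.05. SPRED2, DUSP5 and ETV5 lie to the right of 0 in all 3 panels, while SPRY2 lies left of 0 under GSI and DMSO at -0.28 and -0.45.

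SPRED2, an inhibitor of RAS-to-RAF signalling, was the membrane regulator with the largest genotype difference. It was at 5.69, 6.6 and 5.67 CPM in KO cells under CB-103, against 1.03, 1.12 and 0.845 CPM in NT cells. Under GSI it was at 15.9, 14.4 and 13.8 CPM in KO cells, against 5.18, 4.91 and 5.9 CPM in NT cells. Under DMSO it was at 17.2, 16.8 and 13.2 CPM in KO cells, against 8.62, 9.01 and 7.37 CPM in NT cells. Every KO library lay above every NT library of the same treatment. The log2 differences of KO over NT cells were 2.58±0.15 under CB-103 (edgeR adjusted p = 1.1e-09), 1.46±0.12 under GSI (adjusted p = 1.3e-07) and 0.92±0.12 under DMSO (adjusted p = 1.9e-05), with 3 libraries per group and SE throughout. Transcript SPRED2-201 made up 81.2% to 100% of the gene's TPM in the 6 groups.

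SPRED1, its close relative, hardly differed by genotype. It was at 12.5, 12.5 and 13 CPM in KO cells under CB-103, against 12.1, 13.9 and 13.5 CPM in NT cells. With GSI its level was 13.4, 13.8 and 14.6 CPM in KO cells, against 12.1, 11.5 and 12.6 CPM in NT cells. With DMSO its level was 15.3, 15.7 and 16.6 CPM in KO cells, against 15.5, 16.7 and 16.3 CPM in NT cells. The groups overlapped under CB-103 and DMSO and were apart under GSI. Only the GSI difference was called, at 0.21±0.07 on the log2 scale (edgeR adjusted p = 0.028). That call was lost in 4 of 18 fits that each left out 1 library (without KO GSI replicate 2 or 3, or NT GSI replicate 1 or 2), with an adjusted p of up to 0.11. Plain sums of the transcript estimates gave 0.12 (edgeR adjusted p = 0.42). The call was also lost with no count filter, with only the groups compared and with replicates 2 and 3 only.

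SPRY1, a membrane-associated Sprouty inhibitor of receptor signalling to RAS, showed small genotype differences in 1 direction. It was at 7.1, 7.66 and 6.07 CPM in KO cells under CB-103, against 5.18, 6.15 and 4.17 CPM in NT cells. In GSI libraries it stood at 20.5, 18.9 and 19.8 CPM in KO cells, against 14.3, 16.6 and 16.2 CPM in NT cells. In DMSO libraries it stood at 15.6, 13.7 and 15 CPM in KO cells, against 13.2, 11.4 and 11.4 CPM in NT cells. The libraries of the genotypes overlapped under CB-103 and were apart under the other two treatments. Its log2 difference was 0.43±0.12 under CB-103 (edgeR adjusted p = 0.011), 0.33±0.11 under GSI (adjusted p = 0.032) and 0.30±0.11 under DMSO (adjusted p = 0.072, not called). The CB-103 call was lost without NT CB-103 replicate 3 (0.30, adjusted p = 0.063), and the GSI call without KO GSI replicate 1 or 3 or NT GSI replicate 1 or 3, with an adjusted p of up to 0.13. The DMSO difference was called in 2 of the 18 fits that left out 1 library, those without NT CB-103 replicate 2 (adjusted p = 0.043) or replicate 3 (adjusted p = 0.035).

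SPRY2, the other Sprouty gene with measurable RNA, ran the opposite way in the absence of CB-103. It was at 4.47, 4.72 and 4.83 CPM in KO cells under CB-103, against 4.82, 4.78 and 4.84 CPM in NT cells. Its GSI values were 6.53, 7.52 and 7.24 CPM in KO cells, against 8.59, 8.31 and 8.94 CPM in NT cells. Its DMSO values were 6.62, 7.44 and 7.14 CPM in KO cells, against 8.89, 10.0 and 10.0 CPM in NT cells. Under CB-103 the groups overlapped, and under GSI and DMSO every KO library lay below every NT library. SPRY2 was lower in KO cells by log2 values of -0.28±0.09 under GSI (edgeR adjusted p = 0.02) and -0.45±0.09 under DMSO (adjusted p = 0.00095). Under CB-103 the difference was -0.04±0.09, with a 95% interval from -0.24 to 0.16. The GSI value was no longer called without KO GSI replicate 1 (-0.22, adjusted p = 0.093), nor without NT GSI replicate 3, where it was -0.26 with an adjusted p of 0.072. That call was also lost with no count filter, with only the groups compared and with replicates 2 and 3 only (adjusted p of up to 0.19).

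Among the phosphatases, DUSP5, which acts on ERK in the nucleus, was the one that differed by genotype at a level above a few counts. It was at 3.9, 2.93 and 2.79 CPM in KO cells under CB-103, against 1.1, 0.892 and 0.787 CPM in NT cells. Under GSI it was at 2.59, 2.55 and 1.98 CPM in KO cells, against 0.701, 0.675 and 0.572 CPM in NT cells. Under DMSO it was at 5.1, 5.41 and 5.17 CPM in KO cells, against 2.87, 2.87 and 2.61 CPM in NT cells. The KO libraries lay above the NT libraries under each treatment. DUSP5 was higher in KO cells by 1.78±0.17 (log2) under CB-103 (edgeR adjusted p = 4.2e-07), by 1.87±0.18 under GSI (adjusted p = 6.5e-07) and by 0.91±0.16 under DMSO (adjusted p = 0.00035). Its lowest libraries, NT cells under GSI, rested on 22 to 28 counts each.

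DUSP6, the cytoplasmic ERK phosphatase, was low and variable and was not called between genotypes. It was at 1.29, 1.03 and 1.24 CPM in KO cells under CB-103, against 1.85, 0.988 and 1.4 CPM in NT cells. With GSI its level was 1.1, 0.993 and 1.2 CPM in KO cells, against 1.08, 0.705 and 0.78 CPM in NT cells. With DMSO its level was 1.09, 1.05 and 1.06 CPM in KO cells, against 0.602, 0.802 and 1.29 CPM in NT cells. The genotypes overlapped under every treatment. The log2 differences were -0.26, 0.35 and 0.23 under CB-103, GSI and DMSO, each with an SE of 0.27 or 0.28 and an edgeR adjusted p of 0.48, 0.35 and 0.61. Plain sums of the transcript estimates in place of the deposited gene counts gave -0.64 under CB-103 (adjusted p = 0.012), the only alternative that called it.

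DUSP4 (chromosome 8), a nuclear phosphatase for ERK and related kinases, held 10, 11 and 10 counts in KO cells under GSI, against 1, 0 and 1 counts in NT cells. Under CB-103 it held 0, 7 and 5 counts in KO cells, against 0, 1 and 1 in NT cells, and under DMSO 6, 6 and 8 counts in KO cells, against 3, 1 and 6 in NT cells. No fold or test is given for it, because it entered the tested set through the KO GSI libraries alone.

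ETV5, the ETS activator that follows ERK signalling in many cell types, showed the largest genotype difference of the members above a few counts, under each treatment. It was at 3.39, 3.43 and 3.77 CPM in KO cells under CB-103, against 0.431, 0.573 and 0.437 CPM in NT cells. In GSI libraries it stood at 11.9, 12.9 and 12.2 CPM in KO cells, against 2.05, 2.02 and 2.55 CPM in NT cells. In DMSO libraries it stood at 5.82, 5.27 and 5.2 CPM in KO cells, against 1.67, 2.56 and 2.04 CPM in NT cells. Even the lowest KO library lay above the highest NT library of any treatment. The log2 differences of KO over NT cells were 2.88±0.17 under CB-103 (edgeR adjusted p = 1.8e-09), 2.48±0.15 under GSI (adjusted p = 1.7e-09) and 1.38±0.14 under DMSO (adjusted p = 1.8e-06). The NT libraries under CB-103 rested on 15 to 18 counts each. ETV5 shares 164 exon bases (2.8% of its own) on the same strand with DGKG, whose counts averaged 13.4 per library against 152.2 for ETV5.

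**Figure D3:**
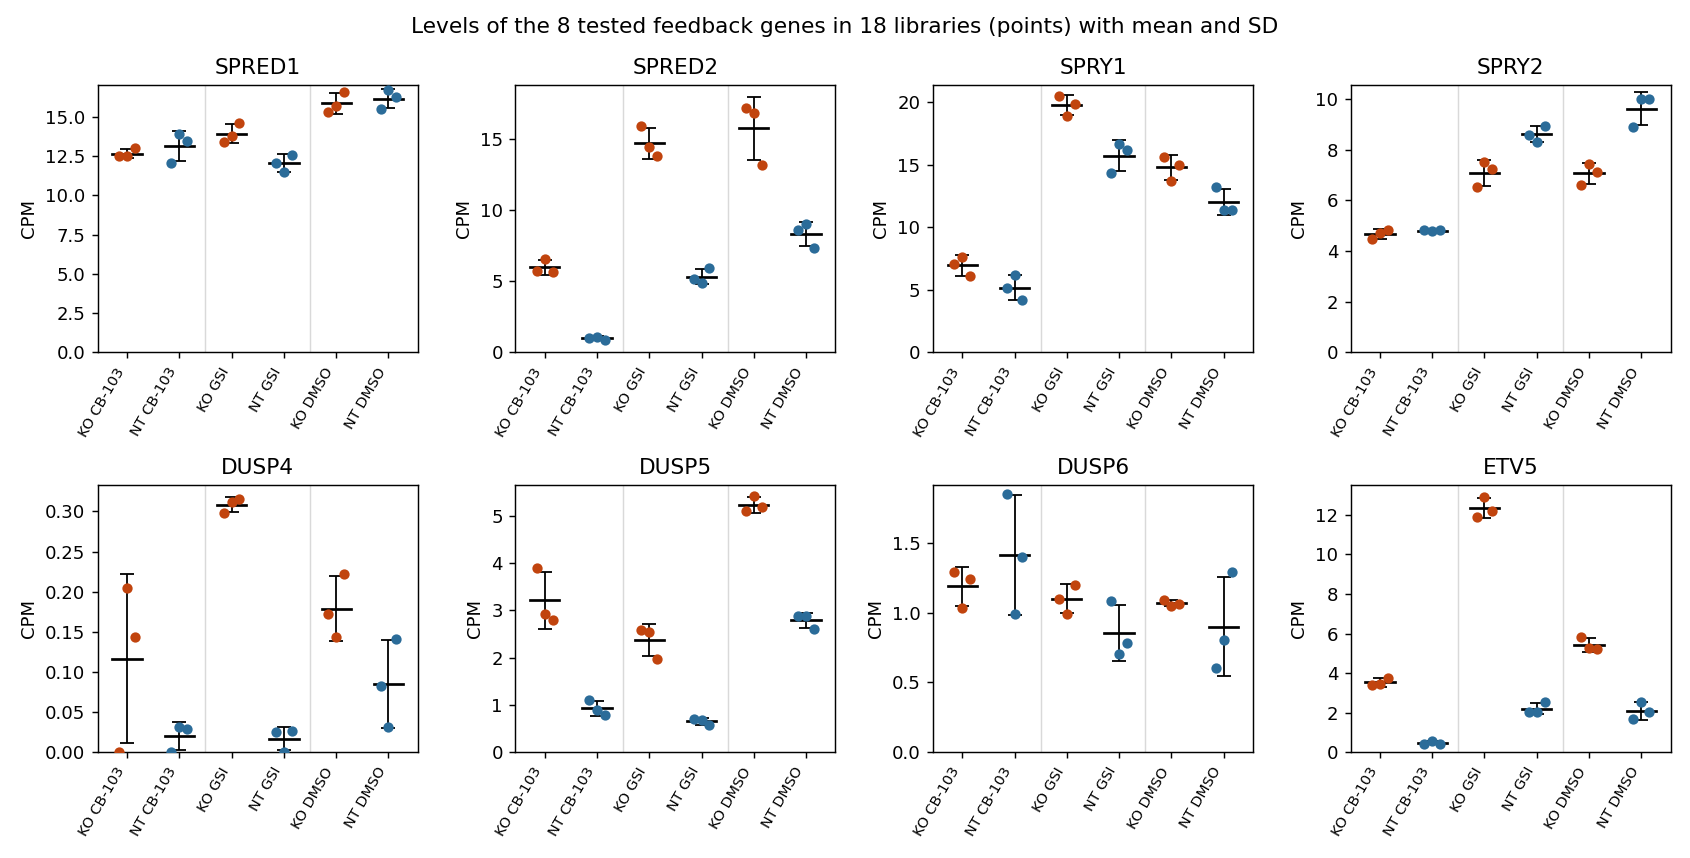
CPM (y axes, from 0) of the 8 tested members in the 6 groups (x axes), with 1 point per library, KO in orange and NT in blue, and the mean and SD of 3 libraries in black. SPRED2 and ETV5 are lowest in NT cells under CB-103, at 0.997 and 0.481 CPM on average, and ETV5 is highest in KO cells under GSI at 12.3 CPM.

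The order of the 6 groups differed between members. For SPRED2, KO DMSO and KO GSI libraries came first (mean 15.7 and 14.7 CPM, ranges overlapping), then NT DMSO (8.33 CPM), then KO CB-103 and NT GSI (5.99 and 5.33 CPM, overlapping), and last NT CB-103 (0.997 CPM). For ETV5 the order was KO GSI (12.3 CPM), KO DMSO (5.43 CPM), KO CB-103 (3.53 CPM), NT GSI and NT DMSO (2.21 and 2.09 CPM, overlapping) and NT CB-103 (0.481 CPM). SPRED2 thus followed both genotype and CB-103, while for ETV5 all 3 KO groups lay above all 3 NT groups. SPRY1 and SPRY2 were instead ordered first by CB-103, with the 2 CB-103 groups lowest in both genes.

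With CB-103 against DMSO, 6 members fell in both genotypes: SPRED1, SPRED2, SPRY1, SPRY2, DUSP5 and ETV5. In KO cells 6 members were called lower with CB-103 than with DMSO, where 23.7% of all genes were called lower, and 0 were called higher, where 24.9% of all genes were. In NT cells 6 were called lower (28.7% of all genes) and 1, DUSP6, higher (29.5% of all genes). The median log2 change over the 7 members was -0.62 in KO cells and -1.22 in NT cells, against -0.01 and 0.04 over all genes. The DMSO libraries that serve as controls here are the same ones that enter the genotype comparison under DMSO, and likewise for the inhibitor-treated libraries, so these comparisons are not independent of one another.

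SPRED2 fell most with CB-103, by 2.63-fold in KO cells (log2 change -1.39±0.12, edgeR adjusted p = 3.1e-08) and by 8.33-fold in NT cells (-3.06±0.15, adjusted p = 6.2e-12). ETV5 fell by 1.54-fold in KO cells (-0.62±0.14, adjusted p = 0.0012) and by 4.35-fold in NT cells (-2.12±0.18, adjusted p = 1.1e-08). DUSP5 fell by 1.63-fold in KO cells (-0.71±0.16, adjusted p = 0.0011) and by 2.98-fold in NT cells (-1.57±0.17, adjusted p = 3.5e-07). For these 3 genes the fall was larger in NT cells, a difference tested further on. SPRY1 fell by similar amounts in both, 2.13-fold in KO cells (-1.09±0.12, adjusted p = 4.7e-07) and 2.33-fold in NT cells (-1.22±0.12, adjusted p = 9.5e-08). SPRY2 fell by 1.51-fold in KO cells (-0.60±0.09, adjusted p = 2.2e-05) and by 2.01-fold in NT cells (-1±0.09, adjusted p = 2e-08). SPRED1 fell least, by 1.25-fold in KO cells (-0.32±0.07, adjusted p = 0.00084) and 1.23-fold in NT cells (-0.30±0.07, adjusted p = 0.0012). With sums of the transcript estimates the SPRED1 fall in KO cells was -0.24 and not called (adjusted p = 0.082).

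DUSP6 stood apart with a log2 value of 0.65±0.27 for CB-103 over DMSO in NT cells (edgeR adjusted p = 0.048). Its libraries overlapped between the treatments, and the call was lost in 14 of 18 fits that left out 1 library, all but those without NT DMSO replicate 3, NT CB-103 replicate 2 or NT GSI replicate 1 or 2. Without NT CB-103 replicate 1, its highest library, the value was 0.40 (adjusted p = 0.26), and without NT DMSO replicate 1, its lowest, it was 0.43 (adjusted p = 0.21). Under CB-103 the summed T-lineage markers were also lower, at 987 to 1050 CPM in KO cells and 885 to 992 CPM in NT cells, against 1370 to 1470 CPM and 1630 to 1710 CPM in the KO and NT cells under DMSO. The list of adherent-cell markers, nearly all PECAM1 and COL1A1 here, summed to 112 to 132 CPM in KO cells and 78.2 to 84.5 CPM in NT cells under CB-103, against 224 to 238 CPM and 260 to 281 CPM in the KO and NT cells under DMSO. The part of these shifts in the falls of the feedback genes was not tested. In bulk RNA, fewer cells of a type and less RNA per cell cannot be told apart.

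GSI, which acts on the same receptor family upstream, changed fewer members and not always in the same direction. In KO cells 2 members were called higher with GSI than with DMSO (9.69% of all genes) and 1 lower (9.58% of all genes). In NT cells 1 was called higher (9.67% of all genes) and 3 lower (15% of all genes). DUSP5 was the gene that fell in both, by 2.2-fold in KO cells (-1.13±0.16, edgeR adjusted p = 6.4e-05) and by 4.27-fold in NT cells (-2.09±0.18, adjusted p = 1.4e-07). SPRY1 rose in both, by 1.34-fold in KO cells (0.42±0.11, adjusted p = 0.014) and 1.31-fold in NT cells (0.39±0.11, adjusted p = 0.018). Leaving out KO DMSO replicate 2 ended the SPRY1 call in KO cells (0.38, adjusted p = 0.062), and the call in NT cells ended without NT DMSO replicate 2 or 3 or NT GSI replicate 2 or 3 (adjusted p of up to 0.067).

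ETV5 rose with GSI in KO cells by 2.27-fold (1.18±0.14, edgeR adjusted p = 7.3e-06). In NT cells its level with GSI differed from that with DMSO by 0.08±0.15, with a 95% interval from -0.24 to 0.41. SPRED2 fell with GSI in NT cells (-0.64±0.12, adjusted p = 0.00091), and in KO cells the difference was -0.10±0.12, with an interval from -0.35 to 0.16. SPRED1 fell in NT cells (-0.42±0.07, adjusted p = 0.00022), with -0.18±0.07 in KO cells (adjusted p = 0.075, not called). SPRY2 and DUSP6 were not called with GSI in either genotype.

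**Figure D4:**
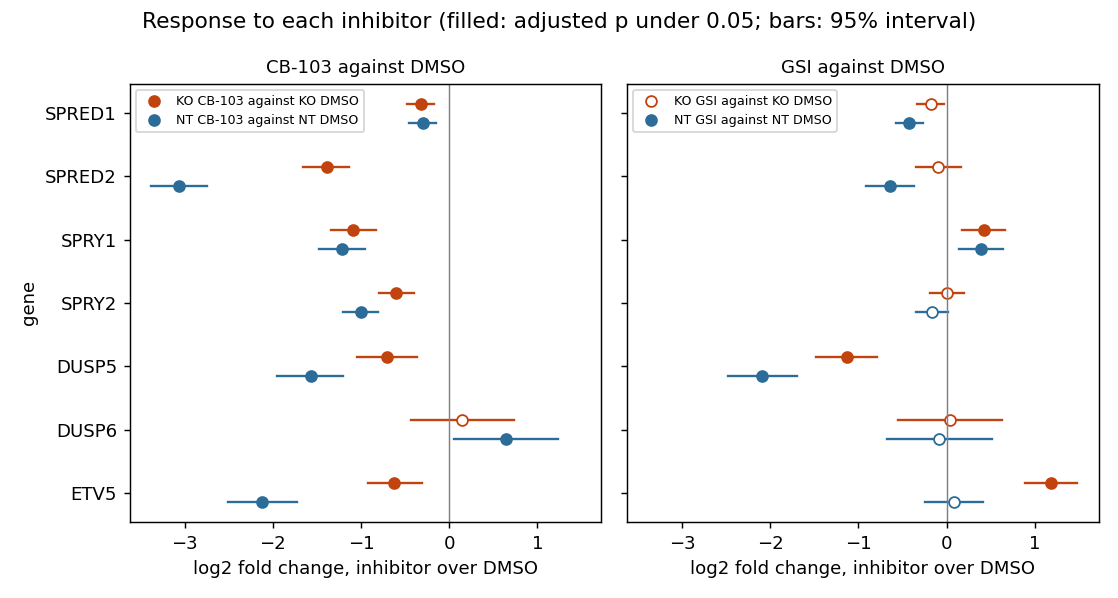
Log2 fold change of each inhibitor over DMSO (x axis) for 7 members (y axis) in KO cells (orange, upper point) and NT cells (blue, lower point), with 95% intervals and filled points where the adjusted p was under 0.05. Under CB-103 the NT points of SPRED2, DUSP5 and ETV5 lie further left than the KO points, and under GSI ETV5 lies at 1.18 in KO cells and at 0.08 in NT cells.

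The difference between genotypes in the response to each inhibitor was tested directly, as the response of KO cells minus that of NT cells. For CB-103, 4 members were called higher (10.3% of all genes) and 0 lower (4.34% of all genes). SPRED2 fell less in KO cells by 1.66±0.19 (log2; edgeR adjusted p = 2.5e-05) and ETV5 by 1.5±0.23 (adjusted p = 0.00029), and both calls held in all 27 alternative fits. DUSP5 fell less by 0.87±0.23 (adjusted p = 0.017), a call lost without KO CB-103 replicate 1 (0.71, adjusted p = 0.05) or NT CB-103 replicate 3 (0.77, adjusted p = 0.055). SPRY2 fell less by 0.41±0.13 (adjusted p = 0.037), a call that held in 9 of 18 fits that left out 1 library, and was lost without KO CB-103 replicate 2 or 3, KO DMSO replicate 1 or 3, NT DMSO replicate 2 or 3, or any NT CB-103 library (values from 0.36, adjusted p of up to 0.085). Without NT CB-103 replicate 3 only SPRED2 and ETV5 were still called. For SPRY1 the difference in response was 0.13±0.17 (interval -0.24 to 0.50) and for SPRED1 -0.02±0.10 (interval -0.24 to 0.19).

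For GSI, 2 members were called higher (2.1% of all genes) and 0 lower (0.692% of all genes). ETV5 rose more in KO cells by 1.10±0.20 (edgeR adjusted p = 0.016), a call lost without KO DMSO replicate 2 (1.08, adjusted p = 0.065). DUSP5 fell less in KO cells by 0.96±0.24 (adjusted p = 0.042). The DUSP5 call held in 5 of 18 fits that left out 1 library. The 13 other fits, those without any 1 of the DMSO libraries of either genotype or of the KO GSI libraries, NT GSI replicate 1 or 3, or NT CB-103 replicate 2 or 3, gave values from 0.87 to 1.07 with an adjusted p of up to 0.14. SPRED2 reached 0.54±0.17 (adjusted p = 0.09, not called).

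CB-103 and GSI libraries were also set against each other within each genotype, with the doses of both unknown. The compounds are not analogs of each other. In KO cells 1 member was called higher with CB-103 than with GSI (24.7% of all genes) and 4 lower (23.1% of all genes). In NT cells 2 were called higher (29.2% of all genes) and 4 lower (27.1% of all genes). The 4 lower were SPRED2, SPRY1, SPRY2 and ETV5 in both genotypes, with log2 differences of -1.3, -1.51, -0.60 and -1.80 in KO cells and -2.42, -1.61, -0.84 and -2.20 in NT cells. DUSP5 went the other way, at 0.43±0.16 in KO cells (edgeR adjusted p = 0.036) and 0.52±0.19 in NT cells (adjusted p = 0.029). The KO call of DUSP5 was lost in 4 fits that left out 1 library, without KO CB-103 replicate 1 (0.27, adjusted p = 0.21), KO GSI replicate 3, KO DMSO replicate 2 or NT CB-103 replicate 2. Its NT call was lost without NT CB-103 replicate 1 (0.37, adjusted p = 0.23), NT CB-103 replicate 2 or NT GSI replicate 3. DUSP6 was higher with CB-103 than with GSI in NT cells (0.72±0.27, adjusted p = 0.03) with overlapping libraries, a call lost without NT CB-103 replicate 1 (0.48, adjusted p = 0.18) or 3, or NT GSI replicate 2 or 3. Each of these DUSP5 and DUSP6 calls was also lost with the DESeq2 Wald test, no count filter, only the groups compared and replicates 2 and 3 only. Of 27 alternative fits, the DUSP5 call held in 18 in KO cells and 19 in NT cells, and the DUSP6 call in 18.

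Genes of the rest of the pathway were called in both directions. For the counts of KO against NT cells that follow, the shares of all genes called higher and lower were 20.4% and 16.5% under CB-103, 18.8% and 15% under GSI, and 9.78% and 11.7% under DMSO. For CB-103 against DMSO they were 24.9% and 23.7% in KO cells and 29.5% and 28.7% in NT cells. Of 23 other feedback regulators, 18 were tested. In KO against NT cells, 5 were called higher and 3 lower under CB-103, 7 higher and 3 lower under GSI, and 3 higher and 4 lower under DMSO. DUSP10, a phosphatase for the stress kinases JNK and p38, was the largest change on this list under each treatment. It was at 9.77, 8.98 and 10.8 CPM in KO cells under CB-103, against 3.62, 4.21 and 3.09 CPM in NT cells (log2 difference 1.44±0.14, edgeR adjusted p = 5.6e-07). The values were 1.3±0.14 under GSI (adjusted p = 2.5e-06) and 1.16±0.14 under DMSO (adjusted p = 1.2e-05). DUSP3, a phosphatase for ERK and JNK, was lower in KO cells, by -0.80±0.07 under CB-103, -0.85±0.07 under GSI and -0.71±0.07 under DMSO. With CB-103 against DMSO, 4 of the 18 rose and 5 fell in KO cells, and 5 rose and 7 fell in NT cells. DUSP16, a JNK phosphatase, rose in both, to 108±1.3 CPM in KO cells under CB-103 against 45.7±2.3 CPM under DMSO, and to 128±3.5 CPM in NT cells under CB-103 against 49.8±2.3 CPM under DMSO (SD, n = 3).

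All 19 genes listed for the RAS-RAF-MEK-ERK cascade itself passed the filter on low counts. In KO against NT cells 5 were called higher and 3 lower under CB-103, 4 higher and 4 lower under GSI, and 3 higher and 3 lower under DMSO, with medians of 0.03, 0.09 and -0.02. KSR2, a scaffold for RAF, MEK and ERK, was lower in KO cells, by -0.62±0.09 under CB-103 (edgeR adjusted p = 5.3e-05), -0.99±0.09 under GSI (adjusted p = 3.5e-07) and -0.80±0.09 under DMSO (adjusted p = 3.2e-06). RPS6KA3, a kinase that ERK activates, was higher in KO cells, by 0.66±0.06, 0.53±0.06 and 0.42±0.06 under the same treatments. With CB-103 against DMSO, 6 cascade genes rose and 6 fell in KO cells, and 5 rose and 8 fell in NT cells. With GSI, 3 were higher and 3 lower in KO cells (9.69% and 9.58% of all genes), and 1 higher and 1 lower in NT cells (9.67% and 15% of all genes).

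Of 15 adaptors and RAS exchange factors, 14 were tested. LAT, the membrane adaptor of that receptor, was at 25.7, 24.8 and 27.0 CPM in KO cells under CB-103, against 9.78, 10.4 and 10.4 CPM in NT cells. Its log2 difference was 1.34±0.11 under CB-103 (edgeR adjusted p = 4.7e-08), 1.08±0.10 under GSI (adjusted p = 3.3e-07) and 0.91±0.10 under DMSO (adjusted p = 3.4e-06). GAB2, a docking protein that binds the PI3K regulatory subunit, was lower in KO cells, by -0.92±0.08, -0.83±0.08 and -0.77±0.08 under the same treatments. Across the list 5 were called higher and 3 lower in KO cells under CB-103, 3 higher and 5 lower under GSI, and 1 higher and 3 lower under DMSO. RASGRP1, the RAS exchange factor of T cells, rose with GSI, by 0.68±0.07 in KO cells (adjusted p = 1.1e-06) and 0.84±0.07 in NT cells (adjusted p = 5.3e-08). RASGRP2, which acts on the related protein RAP1, fell with CB-103, by -1.82±0.10 in KO cells and -2.02±0.09 in NT cells.

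The other ETS transcription factors, relatives of ETV4 and ETV5, had 15 of 17 genes tested. In KO against NT cells, 9 were called higher and 0 lower under CB-103 (20.4% and 16.5% of all genes), 5 higher and 3 lower under GSI (18.8% and 15%) and 4 higher and 2 lower under DMSO (9.78% and 11.7%). Their differences were smaller than that of ETV5. ELK3 was at 8.33, 7.16 and 7.51 CPM in KO cells under CB-103, against 3.21, 3.54 and 3.15 CPM in NT cells (log2 difference 1.22±0.10, edgeR adjusted p = 8.4e-08). ELF1 was at 171, 154 and 167 CPM, against 93.7, 89.5 and 86.1 CPM in NT cells (0.87±0.05, adjusted p = 5.9e-10). With CB-103 against DMSO, 2 rose and 6 fell in KO cells, and 3 rose and 10 fell in NT cells, where ETV6 changed by -1.36±0.05 (adjusted p = 1.2e-13). In the difference between the responses to CB-103, 6 of the 15 were called higher in KO than in NT cells (10.3% of all genes) and 0 lower (4.34% of all genes), at medians of 0.21 over the list and 0.01 over all genes.

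Across the 18 libraries, the members followed one another to different degrees. SPRED2 and ETV5 were most alike, with Pearson's r of 0.91 on log2 CPM and Spearman's rho of 0.83, followed by SPRED2 and SPRY1 (r of 0.82). SPRY2 and DUSP5 were unrelated (r of -0.02), and SPRED1 and SPRED2 reached 0.46. The points share 6 groups and library depth, so these values describe how groups are arranged and carry no test. Of all genes averaging 5 CPM or more, the 3 most like SPRED2 were VOPP1, MMP15 and CD99 (r of 0.992, 0.984 and 0.983). The 3 most like ETV5 were ITPKB, LAPTM5 and DAZAP2 (0.985, 0.978 and 0.975). For SPRY1 they were TOP2A, MMD and NEURL1B (0.982, 0.975 and 0.975), and for SPRY2 GBP4, IMPA2 and TET1 (0.983, 0.981 and 0.978). DUSP5 was closest to ODC1, ZFYVE9 and EIF3I (0.958, 0.945 and 0.943), and SPRED1 to RCL1, SHQ1 and RRP1 (0.93, 0.929 and 0.923). DUSP6 had no gene above 0.813, the value for PIP4P2, with ZNF830 and HARS2 next (0.776 and 0.774).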

How the data were processed

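RNA from 18 libraries was quantified by the authors. They deposited estimated counts per gene, rounded to whole numbers, and for each library estimated counts and TPM per transcript, per the file headers. The submitters' processing notes list Salmon 1.4.0, HISAT2 2.2.1, FastQC 0.11.9, bcl2fastq 2.20 and, as genome build, hg38. How gene values were made from transcripts is not given in the sources used here: for genes above 100 counts, the deposited values and the summed transcript estimates were a median of 2.84% apart. All 206601 transcripts matched GENCODE release 29, which gave coordinates.

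Counts were filtered with filterByExpr (minimum count 10) of edgeR 4.0.16 in R 4.3.3, which left 17346 genes, and scaled by TMM (factors 0.954 to 1.03). glmQLFit and glmQLFTest used all 18 libraries and a mean for each of the 6 groups, for 9 comparisons of 2 groups and 2 differences of responses. Benjamini-Hochberg adjustment covered every gene tested, with calls at an adjusted p under 0.05. The code was tested on simulated data. The alternatives were DESeq2 1.42.0 (its size factors and its Wald test), limma-voom (limma 3.58.1), no filter, fits restricted to the groups being compared, a block for the replicate number, replicates 2 and 3 only, sums of transcript estimates, no mitochondrial genes, and each library left out. TPM served only to compare levels between genes. The named genes were the 10 members, PIK3R1, the called genes of largest change on 6 pathway lists, and, for each member averaging 1 CPM or more, the 3 genes of at least 5 CPM most like it by Pearson's r on log2 CPM (prior count 2). Members and lists were chosen with earlier results of these data known.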

Additional observations from a re-analysis of the deposited data

Results flagged for a closer look

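The responses of KO and NT cells to an inhibitor differed, by a test of that difference over all 18 libraries (edgeR's quasi-likelihood test), for 4 members under CB-103 and 2 under GSI. Under CB-103 the response of KO cells minus that of NT cells was 1.66 (log2) for SPRED2, 1.5 for ETV5, 0.87 for DUSP5 and 0.41 for SPRY2. All 4 RNAs fell in both genotypes, and fell less in KO cells. Under GSI it was 1.1 for ETV5, which rose in KO cells and was not called in NT cells, and 0.96 for DUSP5, which fell in both and less in KO cells. PIK3R1 itself differed in its response to CB-103 by 0.81 (adjusted p = 0.00034), and its genotype difference under CB-103 was not called. What part this has in the differences of the feedback genes was not tested.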

How the results depend on the processing

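No called member value reversed under any of 27 alternatives. Values that were not called changed sign in places, such as DUSP6 for KO against NT cells, at 0.35 under GSI and 0.23 under DMSO and as low as -0.42 and -0.24. Of 52 called values, 37 held under all of them that could be computed and 15 were lost under at least 1, while 8 values not called were called under at least 1. The number of members called stayed within 1.5 times of that reported for all but 3 comparisons. DUSP4 is included in every count of members here. Its call for KO against NT cells under GSI is among those that held, but it was set by the filter and supports nothing. For KO against NT cells under GSI the number called, with DUSP4, was 7, and 4 with replicates 2 and 3 only. For the difference in response to CB-103 it was 4, and 2 with no count filter and 2 with replicates 2 and 3 only. For the difference in response to GSI it was 2, and 1 with limma-voom, 1 with no count filter, 1 without mitochondrial genes and 0 with replicates 2 and 3 only (ETV5 1.27, adjusted p = 0.053). With each library left out in turn, the number called ranged, for KO against NT cells, from 3 to 5 under CB-103, 5 to 7 under GSI and 4 to 5 under DMSO. For CB-103 against DMSO it was 6 in each KO fit and from 6 to 7 in NT cells, for GSI against DMSO from 2 to 3 in KO cells and 3 to 4 in NT cells, for CB-103 against GSI from 4 to 6 in both, and for the differences in response from 2 to 4 (CB-103) and 0 to 2 (GSI).

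Same-numbered replicates deviated together with correlations from 0.033 to 0.339, and 15 of 18 libraries correlated best with their own number. The labels do not say that a replicate number marks a shared batch, so the main fit held no block for it. With the replicate number as a block no call was lost, and SPRED1 in KO cells under GSI against DMSO (-0.18, adjusted p = 0.046) and SPRED2 in the difference in response to GSI (0.54, adjusted p = 0.042) were called as well. Over all genes, that difference in response to GSI was the one comparison whose count moved by over 1.5 times: 484 genes were called, against 1291 with the block, 1257 with the DESeq2 Wald test, 997 with sums of transcript estimates, 279 without mitochondrial genes, 42 with replicates 2 and 3 only and 36 to 856 with 1 library left out. No called value of the pathway-list genes of largest change reversed either. Replicate 1 libraries differed from the others for 2488 genes, among which no member was called (adjusted p from 0.19 to 0.72). Depth limits DUSP4, SPRY4 and ETV4, at 11 counts or fewer per library, and to a lesser degree DUSP6, at 22 to 77.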

Other observations

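Other genes often induced by ERK gave no common direction by genotype. Of 12 listed, 8 were tested. In KO against NT cells 2 were called higher and 0 lower under CB-103, 1 higher and 0 lower under GSI, and 1 higher and 1 lower under DMSO, where the shares of all genes called higher and lower were 20.4% and 16.5%, 18.8% and 15%, and 9.78% and 11.7%. EGR1, an immediate early transcription factor, was at 0.42, 0.088 and 0.431 CPM in KO cells under CB-103, against 0.144, 0.127 and 0.0583 CPM in NT cells. Under GSI it was at 1.16, 1.5 and 2.05 CPM in KO cells, against 0.325, 0.123 and 0.104 CPM in NT cells (log2 difference 3.04±0.61, edgeR adjusted p = 0.00096). Under DMSO it was at 2.23, 0.739 and 0.389 CPM in KO cells, against 0.301, 0.247 and 0.305 CPM in NT cells (1.95±0.58, adjusted p = 0.022). These are low values, of 2 to 78 counts per library. The DMSO value was 0.98 (adjusted p = 0.23) without KO DMSO replicate 1, its highest library, and was also not called without any 1 of the NT DMSO libraries (adjusted p of up to 0.071). JUNB and IER2, also immediate early genes, were higher in KO cells under CB-103, by 0.52±0.11 (adjusted p = 0.0015) and 0.36±0.07 (adjusted p = 0.00039). Neither was called under GSI or DMSO, and under GSI their means were lower in KO cells (16.3 against 19.1 CPM and 50.5 against 55.8 CPM). The gene called lower under DMSO was EPHA4 (-1.68), at 10 to 14 counts per KO library. That call held in 13 of 18 fits that left out 1 library. With CB-103 against DMSO, 1 of the 8 rose and 4 fell in KO cells (24.9% and 23.7% of all genes). In NT cells 1 rose and 4 fell (29.5% and 28.7% of all genes). The median log2 changes over the 8 were -1.21 in KO cells and -1.22 in NT cells, against -0.01 and 0.04 over all genes. Among those that fell was MYC, by -2.05 in KO cells and -2.2 in NT cells.

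Genes of the Capicua repressor complex, which restrains ETV4 and ETV5 in other cell types, were all expressed. Capicua itself (CIC) averaged 75.1 CPM in KO cells under CB-103, 77.5 CPM under GSI and 74.3 CPM under DMSO, against 80.6, 91.9 and 75.4 CPM in NT cells. It was called lower in KO cells under GSI (-0.25±0.08, adjusted p = 0.028), a call lost without KO GSI replicate 2 or NT GSI replicate 3 (-0.19 and -0.18, adjusted p of up to 0.14). With GSI against DMSO, CIC was called higher in NT cells (0.29), a call that held in 15 of 18 fits that left out 1 library. ATXN1 was called higher in that comparison too (0.48). In KO cells neither was called with GSI against DMSO. ATXN1, a binding partner of Capicua, was higher in KO cells under GSI (0.37±0.12, adjusted p = 0.029) and DMSO (0.58±0.13, adjusted p = 0.0025), and rose with CB-103 in KO cells (0.37±0.12, adjusted p = 0.019) and NT cells (0.75±0.12, adjusted p = 4.8e-05). The ATXN1 call between genotypes under GSI ended without any 1 of the KO GSI libraries or NT GSI replicate 1 (adjusted p of up to 0.15). Its CB-103 call in KO cells ended without KO CB-103 replicate 1 or KO DMSO replicate 1 or 3 (adjusted p of up to 0.094).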
